A study of Mus musculus with 6 samples.

Results

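The unfolded protein response and the integrated stress response were examined in microglia that lack the microRNA gene Mir137. The genes were chosen by name, as the rows of the deposited count matrix whose symbol belongs to a list of 33 sensors, transcription factors, chaperones and degradation factors. All 33 were among the 24411 rows, and 31 passed the filter on low counts (Trib3 and Chac1 did not). The libraries were made from total RNA of microglia, the macrophages that reside in the brain, taken from C57BL/6J mice aged 8 weeks. One group came from Mir137 knockout mice (gKO, n = 3 libraries) and the other from wild-type mice (gWT, n = 3 libraries), with strain, age and tissue shared. The labels do not say what the letter g stands for, how the allele was made or which other cells carry it. The comparison asks how loss of the microRNA alters the microglial transcriptome. The design text mentions 4 adult mice without assigning them to libraries, so whether each library is another animal is unknown, and the p-values measure the spread between libraries, which may be technical.

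Proteins that fail to fold in the endoplasmic reticulum (ER) are sensed by IRE1 (Ern1), PERK (Eif2ak3) and ATF6. IRE1 splices Xbp1 mRNA, ATF6 is cut to release a transcription factor, and PERK phosphorylates the translation factor eIF2, which lowers protein synthesis while favouring translation of Atf4. GCN2 (Eif2ak4) feeds amino acid shortage into the same eIF2 step, which is why the branch is called the integrated stress response. Much of this regulation is post-translational or translational, so mRNA levels report mainly on the induced target genes. In macrophages and microglia the pathway serves the production of membrane receptors and secreted proteins.

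Many ER chaperone genes share a promoter element, the ER stress response element (ERSE), formed by CCAAT and CCACG held 9 bases apart and bound by ATF6 with the factor NF-Y. The exact element was searched on both strands of the RefSeq promoter windows on GRCm38.p6, which run from 250 bases before to 50 bases after each gene's start. It was found in 39 of 32851 windows (0.119%) of all genes, and in 8 of the 29 member genes with a window. The other 21 member genes with a window lacked it. The elements are shown because they occur in several of the ER chaperone genes described here; capitals mark the fixed bases, and each element is written in its own 5′ to 3′ direction.
Hspa5: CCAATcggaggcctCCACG
Syvn1: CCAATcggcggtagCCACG
Pdia6: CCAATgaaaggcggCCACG
Dnajc3: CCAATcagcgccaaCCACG
Canx: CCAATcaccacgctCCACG
Creld2: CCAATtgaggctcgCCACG
Calr: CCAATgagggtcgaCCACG
Hsp90b1, nearer: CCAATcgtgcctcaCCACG
Hsp90b1, farther: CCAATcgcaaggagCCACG

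The element started 44 bases upstream of the annotated start in Syvn1, 65 in Hspa5, 98 in Pdia6, 105 in Dnajc3 and 145 in Canx, on the strand of the gene. In Creld2 and Calr it lay on the opposite strand, spanning 126 to 108 and 162 to 144 bases upstream. Hsp90b1 held 1 on each strand. The nearer, on the opposite strand, spanned 107 to 89 bases upstream, and the farther, on the strand of the gene, started 212 bases upstream. The shorter element ERSE-II (ATTGG and CCACG, 1 base apart) was found in 12 of the 32851 windows (0.0365%) and in Herpud1 alone among the members. The C/EBP-ATF element TTGCATCA, to which ATF4 binds with C/EBP partners, was found in 294 windows (0.895%) and in the members Chac1 and Herpud1, while TGACGTGG, the core of the element bound by XBP1, was found in 222 windows (0.676%) and in no member. These are matches of letters in 1 window per start site and do not show binding. The matches in the Herpud1 window did not overlap. The windows of Hspa5 (chr2:34771840-34772139, + strand) and Herpud1 (chr8:94386179-94386478, + strand) are given in full, one as the textbook target of ATF6 and the other because it carries both ERSE-II and the C/EBP-ATF element (capitals mark the matched bases).
Hspa5: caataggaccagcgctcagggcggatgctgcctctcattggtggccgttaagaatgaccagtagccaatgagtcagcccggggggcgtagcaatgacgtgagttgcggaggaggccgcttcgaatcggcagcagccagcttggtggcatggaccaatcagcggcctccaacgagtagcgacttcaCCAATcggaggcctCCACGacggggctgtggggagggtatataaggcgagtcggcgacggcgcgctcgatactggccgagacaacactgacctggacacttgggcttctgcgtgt
Herpud1: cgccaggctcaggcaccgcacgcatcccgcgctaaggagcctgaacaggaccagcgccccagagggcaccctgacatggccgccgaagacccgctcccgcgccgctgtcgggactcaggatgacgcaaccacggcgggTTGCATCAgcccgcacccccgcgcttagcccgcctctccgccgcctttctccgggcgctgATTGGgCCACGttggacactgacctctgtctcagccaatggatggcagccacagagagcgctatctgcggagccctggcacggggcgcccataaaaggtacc

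The deleted microRNA was compared with the members' 3′ untranslated regions. Its mature strand mmu-miR-137-3p (chr3:118433901-118433923, + strand, GRCm38.p6, RefSeq) is printed with its seed, bases 2 to 8, in capitals.
mmu-miR-137-3p: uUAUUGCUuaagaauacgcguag

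The seed's complement, AGCAATA, was absent from the annotated 3′ untranslated region of the longest transcript of all 31 tested members, and of Trib3 and Chac1. Among all tested genes with such a region, 1330 of 12935 (10.3%) held it. The members' regions were also shorter, with a median of 957 bases against 1179 bases. A search of 1 transcript per gene does not cover other isoforms or imperfect sites.

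The libraries held 14603884 to 17652976 counts. On the first principal component (39.0% of the variance) gKO replicate 3 lay at 91.5 and the other 5 libraries between -37.7 and -3.45, so log2 fold changes that move by over 1.5 times or turn sign without it are given both ways where genes are described. All 13 microglial marker genes passed the filter, edgeR called 0 of them (1 higher and 3 lower without gKO replicate 3), and their summed level was 41557 to 44866 CPM (the count scaled to the library total, with TMM factors between libraries) in the 6 libraries. B and plasma cell genes, of interest because antibody secretion engages this pathway, summed to 40.2 to 61.3 CPM in gKO and 45.5 to 50.3 CPM in gWT, with Jchain at 0 to 7 counts and Pax5 at 0 in every library. Of 8 T and NK cell genes in the table, Cd3g and Ncr1 were at 0 in every library. Markers of some other cells moved with genotype. Neutrophil genes summed to 913 to 1335 CPM in gKO and 582 to 689 CPM in gWT, with 2 of 11 called higher (7 without gKO replicate 3), and fibroblast and matrix genes to 240 to 248 CPM against 450 to 656 CPM, with 5 of 10 called lower (6 without it). Endothelial genes summed to 430 to 508 CPM in gKO and 771 to 987 CPM in gWT, with 1 of 10 called lower (9 without it). Mural cell genes summed to 93.1 to 137 CPM in gKO and 213 to 306 CPM in gWT, with 1 of 8 called lower (5 without it). Monocyte genes summed lower in gKO (567 to 822 CPM against 844 to 1067 CPM), yet 2 of 9 were called higher and 0 lower. Astrocyte genes summed to 349 to 386 CPM in gKO and 473 to 593 CPM in gWT, with 0 of 10 called (1 lower without gKO replicate 3). Oligodendrocyte genes summed to 374 to 443 CPM in gKO and 345 to 358 CPM in gWT, with 1 of 8 called higher (1 higher and 1 lower without gKO replicate 3). Sums of ependyma and choroid plexus genes overlapped (1176 to 3218 CPM in gKO, 1977 to 3431 CPM in gWT), with 0 of 8 called (2 lower without gKO replicate 3). In such bulk samples fewer cells of a type and less RNA per cell cannot be told apart.

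Across the 31 tested members, the estimated log2 fold changes of steady-state mRNA between the genotypes ran from -0.70 to 0.47. Trib3 and Chac1, which failed the filter, are described below by their counts. The edgeR quasi-likelihood test, with Benjamini-Hochberg adjustment over all 13403 genes tested, called 0 of 31 members higher and 0 lower at an adjusted p under 0.05, while it called 0.395% of all genes higher and 0.231% lower. An unadjusted p under 0.05 was reached by 4 members (12.9%), against 10.9% of all genes: Ppp1r15a, Herpud1 and Atf4 were higher in gKO and Pdia4 was lower. The median log2 fold change was 0.01 over the members and 0.01 over all genes, and the interquartile range of the members was -0.15 to 0.12 (all genes -0.26 to 0.22). For 28 of the 31 members the 95% interval of the log2 fold change, not adjusted for the number of genes, stayed within 1 unit of 0 on either side, that is within a 2-fold change. The other 3 were Ern1, Ddit3 and Asns. The interval stayed within these limits for 7904 of all 13403 genes, whose median SE was 0.25 against 0.15 for the members. The 3 libraries of gKO lay wholly above those of gWT in 4 members (12.9%, against 10.0% of all genes) and wholly below in another 4 (12.9%, against 11.2%). DESeq2 called 1 member higher, limma-voom 0 and limma-voom with sample weights 1, in each case Ppp1r15a and with 0 lower. Of all 13403 genes, DESeq2 called 218 higher and 257 lower, limma-voom 52 and 33, and limma-voom with sample weights 261 and 152.

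**Figure D1:**
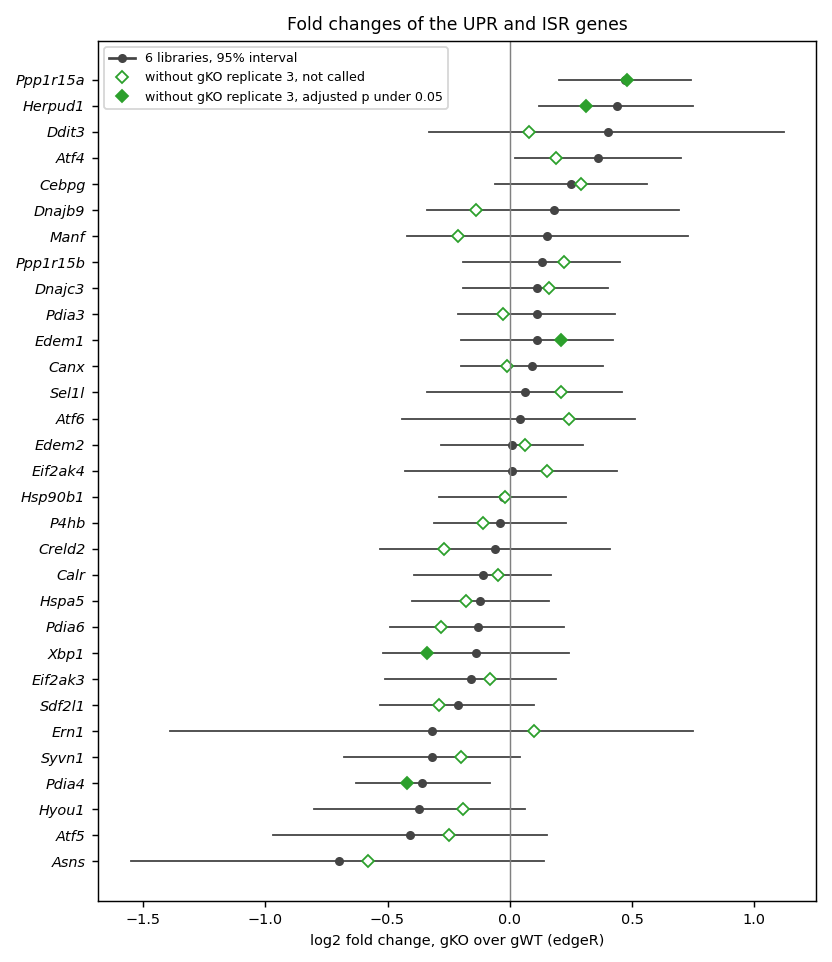
Each row is 1 of the 31 tested genes, and the horizontal axis is the log2 fold change of gKO over gWT by edgeR. Black points with bars are the estimates from 6 libraries with 95% intervals and green diamonds the estimates without gKO replicate 3, filled where the adjusted p was under 0.05: Ppp1r15a, Herpud1 and Edem1 to the right of 0, Pdia4 and Xbp1 to the left.

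Without gKO replicate 3, edgeR called 5 of 32 members. Ppp1r15a, Herpud1 and Edem1 rose (9.38% of members, against 3.99% of all 13814 genes tested) and Xbp1 and Pdia4 fell (6.25%, against 3.82%). These members do different things: Ppp1r15a switches the eIF2 branch off, Herpud1 and Edem1 act in degradation, Pdia4 forms disulfide bonds and Xbp1 is the transcription factor of the IRE1 branch. Without any other single library, edgeR called 0 members in either direction, and at most 5 genes in the whole table.

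The sensors were measured first. Ern1, the kinase and RNase IRE1 (chromosome 11, 106394650 to 106487852), had 22.4, 24.8 and 5.37 CPM in gKO and 22.1, 21.3 and 22.2 CPM in gWT. gKO replicate 3 was far below the other 5 libraries, which lay close together. The log2 fold change of -0.32 (SE 0.47, edgeR adjusted p = 0.863) turned to 0.10 (adjusted p = 0.780) without that library. Eif2ak3, which encodes PERK, had 66.6, 55.9 and 49.7 CPM in gKO and 60.6, 68.0 and 63.9 CPM in gWT, with overlapping groups and a log2 fold change of -0.16 (SE 0.15, edgeR adjusted p = 0.777; -0.08 without gKO replicate 3). Eif2ak4, the amino acid sensor GCN2, had 40.4, 38.2 and 27.6 CPM in gKO and 33.3, 33.3 and 39.0 CPM in gWT, a log2 fold change of 0.01 (SE 0.19, edgeR adjusted p = 0.993; 0.15 without gKO replicate 3). Atf6 had 143, 140 and 82.3 CPM in gKO, so that gKO replicates 1 and 2 lay above and replicate 3 below the 118, 116 and 121 CPM of gWT. Its log2 fold change was 0.04 (SE 0.21, edgeR adjusted p = 0.969) with all libraries and 0.24 (adjusted p = 0.0673) without gKO replicate 3. In all 4 sensors gKO replicate 3 was the lowest of the 6 libraries.

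Among the transcription factors, Atf4, the main effector of the eIF2 branch (chromosome 15, 80255184 to 80257541), had 175, 170 and 233 CPM in gKO and 148, 150 and 153 CPM in gWT. Every gKO library was above every gWT library, and gKO replicate 3 was the highest. The log2 fold change was 0.36 (SE 0.15, unadjusted p = 0.0418, edgeR adjusted p = 0.439), or 0.19 (adjusted p = 0.117) without gKO replicate 3. Cebpg, a C/EBP factor that pairs with ATF4, had 83.4, 99.8 and 82.7 CPM in gKO and 71.3, 76.6 and 75.1 CPM in gWT, again without overlap (edgeR log2 fold change 0.25, SE 0.13, adjusted p = 0.557). Atf5, a related factor, had 15.2, 13.4 and 9.47 CPM in gKO and 17.8, 14.3 and 18.5 CPM in gWT (-0.41, SE 0.25, edgeR adjusted p = 0.615), and the groups overlapped. Without gKO replicate 3, its lowest library, Atf5 had -0.25.

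Xbp1 (chromosome 11, 5520659 to 5525893) had 87.6, 82.6 and 121 CPM in gKO and 109, 102 and 110 CPM in gWT. gKO replicates 1 and 2 were below all gWT libraries and replicate 3 was above them. The log2 fold change was accordingly -0.14 (SE 0.17, edgeR adjusted p = 0.827) with 6 libraries and -0.34 (SE 0.09, adjusted p = 0.0312) without replicate 3. These are total Xbp1 counts, which do not separate the spliced from the unspliced form. Ddit3, which encodes the death-promoting factor CHOP, had 11.6, 9.25 and 17.9 CPM in gKO and 10.1, 11.9 and 7.38 CPM in gWT. The groups overlapped, and its log2 fold change of 0.40 (edgeR adjusted p = 0.724) had a 95% interval of -0.33 to 1.12. gKO replicate 3 was the highest library, and the value was 0.08 (SE 0.28, adjusted p = 0.908) without it.

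Ppp1r15a, or GADD34 (chromosome 7, 45522916 to 45526268), is the stress-induced subunit that brings phosphatase to eIF2 and ends the translational block. It had the smallest p of the members. The gKO libraries held 188, 198 and 185 CPM and the gWT libraries 131, 148 and 133 CPM, without overlap and with gKO replicate 3 close to the other gKO libraries. Libraries varied by an SD of 7.05 CPM within gKO and 9.30 CPM within gWT (n = 3 each), and the groups differed 1.39-fold (log2 fold change 0.47, SE 0.12, 95% interval 0.20 to 0.74). The edgeR adjusted p was 0.178. It was 0.00188 when gKO replicate 3 was left out, and 0.270 to 0.807 when any of the other 5 libraries was left out. DESeq2 gave an adjusted p of 0.00760 and limma-voom with sample weights 0.0162. The constitutive partner Ppp1r15b had a log2 fold change of 0.13 (SE 0.14, edgeR adjusted p = 0.799; 0.22 without gKO replicate 3) and overlapping groups.

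Ppp1r15a is also an early response gene of stimulated and handled cells. The 19 immediate-early and handling genes, which did not include it, had a summed level of 24047 to 25270 CPM in gKO and 14410 to 16118 CPM in gWT, and edgeR called 9 of them higher (15 without gKO replicate 3) and 0 lower. Their part in the Ppp1r15a difference was not tested. Neutrophil markers were higher in gKO as well (above), and their part was not tested either.

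Trib3, a pseudokinase induced by ATF4 and CHOP that restrains both, was close to the limit of detection in gKO. It had 1, 0 and 0 counts in gKO replicates 1, 2 and 3 and 39, 1 and 16 counts in gWT. Its gWT libraries thus differed widely among themselves, and gWT replicate 2 and gKO replicate 1 had 1 count each. Trib3 passed the filter in some fits with fewer libraries, where its smallest edgeR adjusted p was 0.160 (without gKO replicate 3). Chac1, a glutathione-degrading enzyme and ATF4 target, had 0 counts in all gKO libraries and 5, 3 and 0 counts in gWT, which is at the limit of detection, since a count of 0 allows up to 3 counts, or 0.172 to 0.212 CPM (counting error only). Asns, asparagine synthetase, was the lowest tested member, with 3.03, 4.18 and 2.61 CPM in gKO and 6.30, 4.28 and 5.44 CPM in gWT. The groups did not overlap, although gKO replicate 2 and gWT replicate 2 were close. Its log2 fold change of -0.70 had the widest standard error but for Ern1 (SE 0.37, 95% interval -1.55 to 0.14, edgeR adjusted p = 0.550). Asns, Chac1 and Trib3 were thus the 3 lowest members, whereas the mRNA of their activator Atf4 was among the more abundant ones (levels per length are given further on).

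**Figure D2:**
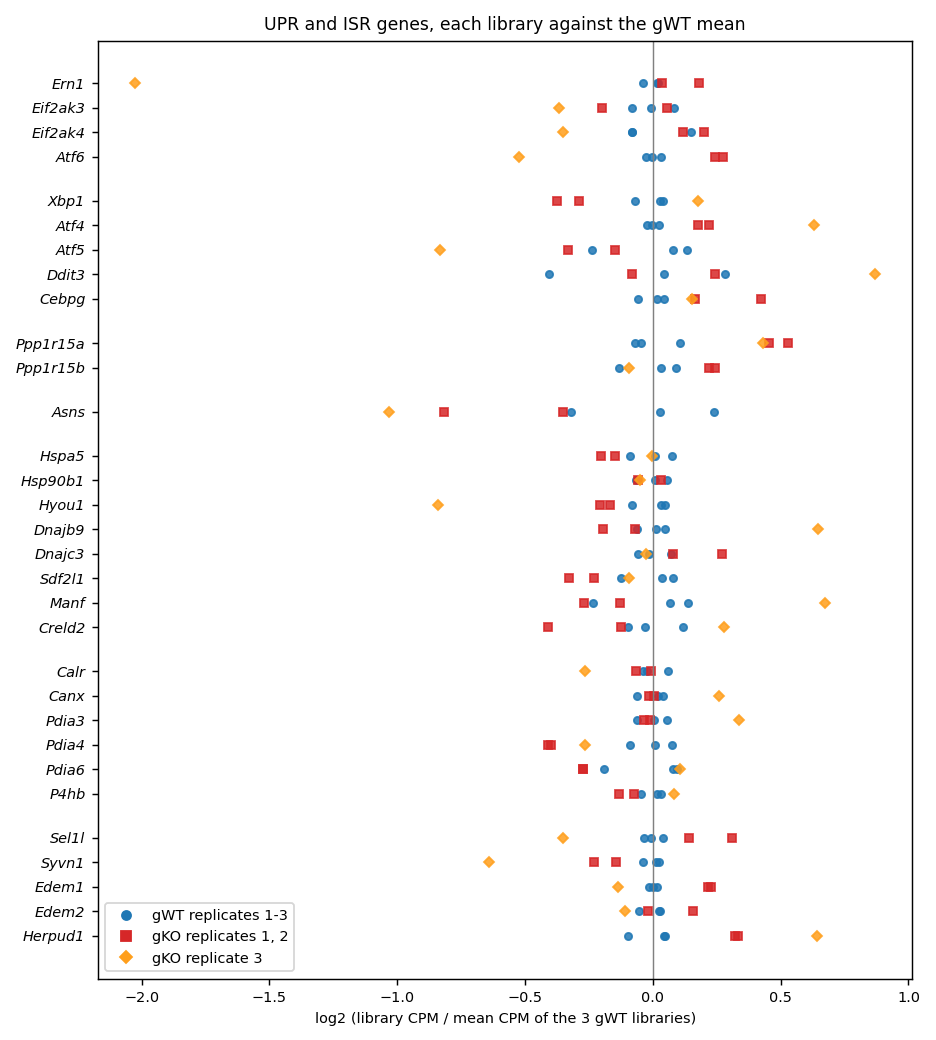
Each row is 1 tested gene, in groups by role (sensors, transcription factors, eIF2 feedback, Asns, HSP70 and HSP90 system, lectin chaperones and isomerases, degradation), and the horizontal axis is the log2 ratio of each library's CPM to the mean of the 3 gWT libraries. Blue circles are gWT libraries, red squares gKO replicates 1 and 2 and orange diamonds gKO replicate 3, which lies far to the left for Ern1 and to the right of the other gKO libraries for Ddit3, Dnajb9 and Manf.

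The ER HSP70 and HSP90 system showed no call in 8 members, 3 of them positive and 5 negative, with a median log2 fold change of -0.04 and a range of -0.37 to 0.18. With gKO replicate 3 left out, 1 was positive and 7 were negative, with a median of -0.19 and again no call. Hspa5, or BiP (chromosome 2, 34771970 to 34777547), holds the sensors inactive and is the usual marker of the response. It had 550, 572 and 631 CPM in gKO and 596, 667 and 637 CPM in gWT, with overlapping groups and a log2 fold change of -0.12 (SE 0.12, 95% interval -0.40 to 0.16, edgeR adjusted p = 0.794; -0.18, adjusted p = 0.0940, without gKO replicate 3). Hsp90b1, the ER HSP90 known as GRP94, had 872, 821 and 825 CPM in gKO and 815, 887 and 860 CPM in gWT, with overlap (edgeR log2 fold change -0.03, adjusted p = 0.959). Hyou1, a nucleotide exchange factor for BiP, had 101, 98.2 and 63.2 CPM in gKO and 107, 117 and 116 CPM in gWT. Each gKO library was below each gWT library (edgeR log2 fold change -0.37, SE 0.19, adjusted p = 0.536). The lowest value was that of gKO replicate 3, without which the log2 fold change was -0.19.

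The J proteins that serve BiP were not called, Dnajb9 standing at a log2 fold change of 0.18 (SE 0.22) and Dnajc3 at 0.11 (SE 0.13). Sdf2l1, a BiP cofactor, had -0.21 (SE 0.14). Manf, a secreted survival factor, had 0.15 (SE 0.25) and the ER-resident Creld2 -0.06 (SE 0.21), and all 5 had an edgeR adjusted p of at least 0.644. Manf and Dnajb9 had -0.21 and -0.14 without gKO replicate 3, the opposite sign, and Creld2 had -0.27. That library held 137 CPM of Manf and 87.5 CPM of Dnajb9 while the other gKO libraries held at most 78.5 and 53.3 CPM.

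Lectin chaperones and disulfide isomerases, which fold glycoproteins and form disulfide bonds, included 5 of the 7 most abundant members (per length). edgeR called 0 of 6, with 2 positive and 4 negative values and a median log2 fold change of -0.07. All 6 values were negative without gKO replicate 3 (median -0.08). The calcium-binding lectin Calr had 857, 821 and 716 CPM in gKO and 837, 847 and 897 CPM in gWT (edgeR log2 fold change -0.11, SE 0.12, adjusted p = 0.815; -0.05 without gKO replicate 3). Its membrane-bound partner Canx (0.09, SE 0.13), the glycoprotein isomerase Pdia3 (0.11, SE 0.14), the general isomerase P4hb (-0.04, SE 0.12) and Pdia6 (-0.13, SE 0.16) had edgeR adjusted p-values of 0.818 to 0.939. Canx had -0.01, Pdia3 -0.03, P4hb -0.11 and Pdia6 -0.28 without gKO replicate 3. Pdia4 (chromosome 6, 47796141 to 47813430), an isomerase strongly induced by ER stress, was the exception in size, with 113, 112 and 124 CPM in gKO and 157, 150 and 140 CPM in gWT. The groups did not overlap. The log2 fold change was -0.36 (SE 0.12, unadjusted p = 0.0176, edgeR adjusted p = 0.326), and -0.42 (SE 0.08, adjusted p = 0.00630) without gKO replicate 3. Fibroblast and matrix markers moved in the same direction (240 to 248 CPM in gKO, 450 to 656 CPM in gWT). All 10 had a negative log2 fold change, and edgeR called 5 of them lower. Their part in the Pdia4 value was not tested.

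In ER-associated degradation, which returns misfolded proteins to the cytosol for the proteasome, Herpud1 stood highest. This membrane scaffold of the retrotranslocation complex (chromosome 8, 94386438 to 94395377) had 121, 120 and 150 CPM in gKO and 89.9, 99.4 and 99.0 CPM in gWT. No gKO library overlapped with gWT, and the 1.35-fold difference (log2 fold change 0.44, SE 0.14, 95% interval 0.12 to 0.75) had an unadjusted p of 0.0127 and an edgeR adjusted p of 0.292. Without gKO replicate 3 it was 0.31 (SE 0.08, adjusted p = 0.0370). Syvn1, the ubiquitin ligase HRD1 that works beside Herpud1, had 78.4, 73.8 and 55.6 CPM in gKO and 84.4, 88.1 and 87.3 CPM in gWT. Here every gKO library lay below every gWT library (edgeR log2 fold change -0.32, SE 0.16, adjusted p = 0.518), and its value without gKO replicate 3 was -0.20 (adjusted p = 0.224). Sel1l, the adaptor of HRD1, had a log2 fold change of 0.06 (SE 0.17) and the mannosidase-like Edem2 0.01 (SE 0.13), or 0.21 and 0.06 without gKO replicate 3. Edem1, which marks glycoproteins for disposal, had 608, 613 and 477 CPM in gKO and 518, 529 and 524 CPM in gWT. It was higher in gKO replicates 1 and 2 and lower in replicate 3, which gave 0.11 (edgeR adjusted p = 0.828) with all libraries and 0.21 (adjusted p = 0.0365) without replicate 3.

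The members with a promoter element were set beside the others. The 9 genes with an ERSE or ERSE-II had a median log2 fold change of -0.06 and a range of -0.32 to 0.44, with 3 positive and 6 negative. The 18 tested members with a promoter window and neither element had a median of 0.01 and a range of -0.70 to 0.47. Herpud1 and Syvn1, the highest and the lowest of these 9, both act in degradation. The 9 genes summed to 3507 to 3659 CPM in gKO and 3478 to 3743 CPM in gWT, and these ranges overlapped.

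Levels of different genes were compared per length, as counts per kilobase of the longest annotated transcript scaled to a common total (TPM), in the gWT libraries. Calr led with 1004 ± 39.3 TPM, followed by Pdia3 (788 ± 7.06), Hsp90b1 (770 ± 6.25), P4hb (620 ± 10.1), Hspa5 (439 ± 9.51) and Canx (421 ± 6.44; SD, n = 3 for each). Atf4 had 222 ± 6.09 TPM, close to Edem1 at 229 ± 6.12. Pdia4 (158 ± 13.6) and Sdf2l1 (155 ± 5.87) did not differ beyond their spread. Xbp1 had 128 ± 8.43, Herpud1 125 ± 2.71 and Ppp1r15a 125 ± 5.46 TPM, and these 3 were within their spread of each other, as were Sel1l (64.7 ± 3.95), Hyou1 (64.3 ± 0.716) and Syvn1 (63.7 ± 0.925). The sensors were lower, from Atf6 at 41.7 ± 1.84 TPM through Eif2ak3 at 36.2 ± 0.921 and Eif2ak4 at 16.9 ± 1.51 to Ern1 at 8.03 ± 0.427 TPM. CHOP mRNA (Ddit3) stood at 28.0 ± 6.37 TPM, Trib3 at 1.42 ± 1.49 and Chac1 at 0.246 ± 0.239 TPM. Calr lay at the 99.0 and Hspa5 at the 97.6 percentile of the tested genes. The stress targets Trib3 (39, 1 and 16 counts) and Chac1 (5, 3 and 0 counts) were the lowest members in wild type.

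The spread within gKO tended to follow transcript length. The log2 difference of gKO replicate 3 from the mean of the other gKO libraries had a Spearman rho of -0.64 with transcript length over the 31 tested members, as over 13320 genes (rho = -0.57); the points share the same libraries, and the values are descriptive. It was lowest for Ern1 (-2.04, longest transcript 6946 bases) and highest for Manf (0.87, 2247 bases). Atf6, with 7246 bases, had -0.77, and Ddit3, with 890 bases, had 0.77. Some members went the other way: Atf5 (1816 bases) had -0.57, Asns (2016 bases) -0.39, Canx (4281 bases) 0.26 and Hspa5 (3672 bases) 0.17. Over the members longer than the median of 2809 bases the median difference was -0.32, and over the others 0.34. After each library's trend with length was removed, edgeR called Ppp1r15a (log2 fold change 0.46, adjusted p = 0.0412) and 0 other members. In that fit, 157 of all 13403 genes were called higher.

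**Figure D3:**
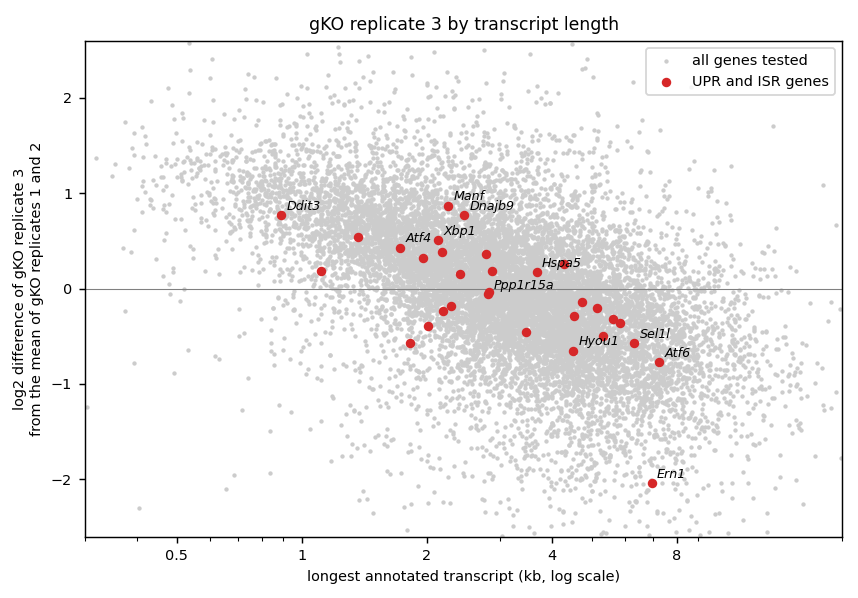
The horizontal axis is the length of the longest annotated transcript (log scale) and the vertical axis the log2 difference of gKO replicate 3 from the mean of gKO replicates 1 and 2. Red points are the 31 tested members and grey points all tested genes (105 lie outside the axes). Among the members, long transcripts such as Ern1, Atf6 and Sel1l lie below 0 and Ddit3, the shortest, lies above. Exceptions include the longer Canx and Hspa5 above 0 and the shorter Atf5 and Asns below.

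Other genes of the pathway were read from 6 further lists with 147 genes, of which 140 passed the filter. edgeR called 3 of the 140 higher and 0 lower, against 0.395% and 0.231% of all genes. The median log2 fold change of the 140 was 0.01. The 3 called genes were all in the list of ATF4 and CHOP target genes (28 tested, median 0.09). That list was written with earlier results of these data known, so their falling in it is not a result. Atf3, a stress factor and itself an immediate-early gene, had 619, 634 and 670 CPM in gKO and 247, 240 and 229 CPM in gWT, and rose by a log2 fold change of 1.42 (SE 0.12, edgeR adjusted p = 0.00431). Ddit4, a stress-induced inhibitor of mTOR, had 257, 250 and 167 CPM in gKO and 72.7, 88.6 and 85.2 CPM in gWT, and rose by 1.45 (SE 0.19, edgeR adjusted p = 0.0221). Jdp2, an AP-1 repressor, had 34.2, 32.6 and 44.0 CPM in gKO and 12.1, 15.3 and 13.9 CPM in gWT, and rose by 1.42 (SE 0.20, edgeR adjusted p = 0.0246). The groups of all 3 were far apart. Without gKO replicate 3 the list's median was -0.03, and edgeR called Gdf15, Klhl24 and Xpot higher as well. That made 6 of the 28, against 3.99% of all genes in that fit. None of Atf3, Ddit4 and Jdp2 was called when any gWT library was left out (edgeR adjusted p from 0.0956 to 0.234). Ddit4 and Jdp2 were not called without gKO replicate 1 or 2 either. Amino acid genes of the same list were not called, as 4 examples picked after their values were seen show. Psat1 had 0.25 (SE 0.17), Phgdh 0.00 (SE 0.11), Mthfd2 -0.17 (SE 0.33) and Slc7a11 -0.55 (SE 0.29), with edgeR adjusted p-values of 0.557 to 0.995. When gKO replicate 3 was left out, Psat1 had 0.08, Phgdh -0.04 and Mthfd2 -0.01.

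The further lists held 0 called genes each. They were 23 ER chaperones and oxidative folding enzymes (median log2 fold change 0.04), 23 degradation factors (0.00), 16 genes of ER translocation (0.12, and -0.04 without gKO replicate 3), 30 sensors and regulators (0.01) and 20 cytosolic aminoacyl-tRNA synthetases (-0.07), and an unadjusted p under 0.05 was reached by 2, 0, 0, 1 and 0 of their genes, together 3 of 112 (2.68%, against 10.9% of all genes). In the ATF4 and CHOP list, left out of this share, it was reached by 5 of 28 (17.9%). All these lists were written with earlier results of these data known, so nothing is read from the shares. The largest difference in the lists without a call was that of Ero1lb, an oxidase that recharges the disulfide isomerases. It had 7.61, 13.5 and 11.3 CPM in gKO and 4.83, 5.08 and 3.92 CPM in gWT, without overlap (edgeR log2 fold change 1.23, SE 0.31, adjusted p = 0.175), and was called by DESeq2 (adjusted p = 0.0172) and without gKO replicate 3 (1.18, adjusted p = 0.0462). The eIF2 kinase regulator Impact, which holds GCN2 in check, had 0.61 (SE 0.21, edgeR adjusted p = 0.338). Impact was called without gKO replicate 3 (0.73, adjusted p = 0.0181) and by limma-voom with sample weights (adjusted p = 0.0383). The other genes with the smallest p of these lists were the isomerase Pdia5 at -0.52 (SE 0.22), the degradation factors Erlec1 at 0.34 (SE 0.22) and Ube2j1 at 0.23 (SE 0.15), Ssr3 at 0.28 (SE 0.15) and Spcs3 at 0.20 (SE 0.12) of the translocon and signal peptidase, and the death gene Bcl2l11 at 0.38 (SE 0.17), with edgeR adjusted p-values of 0.454 to 0.644. Without gKO replicate 3, edgeR also called Bcl2l11 (0.45, adjusted p = 0.0458) and Nploc4 (0.36, adjusted p = 0.0333) higher and Aup1 (-0.28, adjusted p = 0.0253) lower, while Erlec1 had 0.17, Ube2j1 0.09, Ssr3 0.13 and Spcs3 0.12. The synthetases, which charge tRNAs and some of which are ATF4 targets, spanned -0.26 (Iars) to 0.40 (Dars), and these genes had -0.13 and 0.16 without gKO replicate 3.

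**Figure D4:**
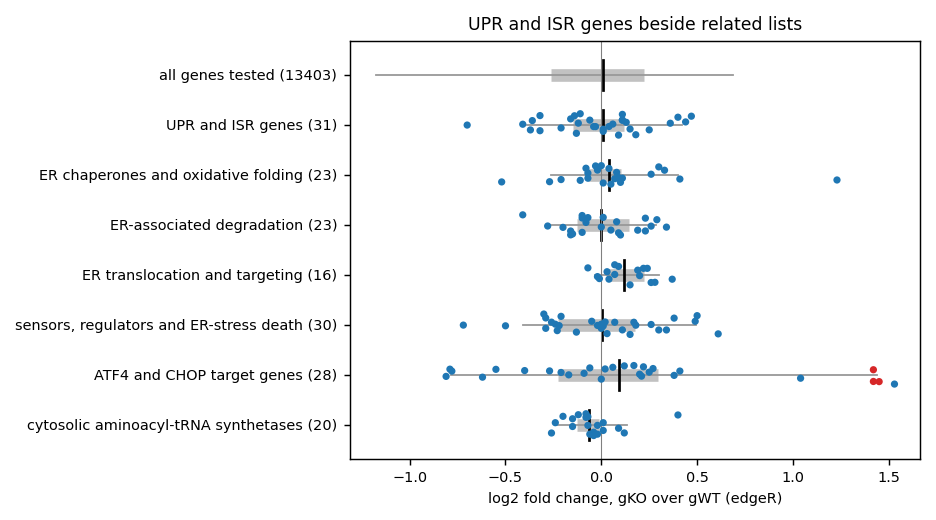
Each row is a gene list with its number of tested genes, and the horizontal axis is the log2 fold change of gKO over gWT. Points are genes (red where the edgeR adjusted p was under 0.05), black ticks medians, thick bars the interquartile range and thin lines the 5th to 95th percentile; the red points are Atf3, Ddit4 and Jdp2.

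In the authors' deposited table of genes higher in gKO (75 genes, smallest log2 fold change 1.03) and that of genes lower in gKO (201 genes), 0 of the 33 members were listed. The edgeR log2 fold changes of the 31 tested members ran from -0.70 to 0.47. These were smaller in size than any value the authors listed in either direction. The absence of the tested members therefore adds no separate result on differences of this size. Of the further pathway genes, Atf3, Ddit4, Ero1lb, Gdf15 and Jdp2 were in the authors' deposited table of higher genes and 0 in that of lower genes.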

How the data were processed

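RNA was sequenced from 6 libraries (3 gKO, 3 gWT). The authors deposited expected counts per gene symbol, without normalization. Tools and builds listed, per the submitters' processing notes, are RSEM, STAR 2.7.9a, DESeq2, mm10 and GRCm38, whose roles the notes leave unsaid. For annotation and strandedness: not given in the sources used here. Per the file headers, the authors' deposited lists of called genes give each gene's log2 fold change, p-value before and after adjustment, 2 scores (standard error and test statistic) and a signal, the average normalized count. Totals were 14603884 to 17652976 counts per library, and no pair of libraries was a duplicate (chi-square per degree of freedom within a group of at least 6.54).

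Counts were rounded and tested with edgeR 4.0.16 (R 4.3.3): TMM, default filter on low counts, robust quasi-likelihood test on genotype, adjusted over 13403 genes. SE is the absolute log2 fold change over the square root of F. DESeq2 1.42.0, limma 3.58.1, other scalings and filters, a replicate block, removal of a length trend and leaving out each library were alternatives. The test was checked on simulated data. Gene models are GENCODE M21 (GRCm38, 1-based), matched by name for 23368 symbols and by synonym for 650, and promoters and the microRNA are from RefSeq. Members, lists, motifs and the rule for named genes (8 fixed members, those with an unadjusted p under 0.05, the 5 highest and 3 lowest; in other lists the called genes, otherwise the 2 of smallest p) were chosen with earlier results of these data known; Edem1, Syvn1, Hsp90b1 and Calr were given by library after their values were seen.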

Additional observations from a re-analysis of the deposited data

How the results depend on the processing

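With DESeq2, limma-voom with sample weights and removal of the length trend, 1 member was called higher; leaving out 1 library gave 0 to 3 members higher and 0 to 2 lower, the highest counts being those without gKO replicate 3. Under the other settings run, 0 members were called. Over all genes, the 53 higher and 31 lower calls became 218 and 257 with DESeq2, 261 and 152 with sample weights, 157 and 138 with the length trend removed, and 47 lower with no filter. They ranged from 0 to 551 higher and 0 to 528 lower when 1 library was left out. Of the further pathway genes, 3 were higher, DESeq2 and sample weights called 5 each, and leaving out 1 library gave 0 to 10 higher and 0 to 1 lower. The 10 higher and 1 lower were those without gKO replicate 3, where 3.99% and 3.82% of all genes were called. Same-numbered libraries of the genotypes did not deviate together (correlations 0.05, -0.05 and 0.02), and not every library correlated best with its own number. With the replicate block, 11 genes were higher and 7 lower, 1 further pathway gene was higher, and 0 members were called (smallest edgeR adjusted p 0.381). Uncalled log2 fold changes near 0 turned sign: that of Atf6 was -0.00406 with upper-quartile factors, -0.00277 with limma-voom, -0.00374 with the replicate block and -0.10 to 0.24 in the leave-one-out fits, and that of Eif2ak4 was -0.03 with upper-quartile factors, -0.00337 with no filter, -0.000671 with the stricter filter, -0.01 with the replicate block and -0.10 to 0.15 in the leave-one-out fits. That of Ern1 ranged from -0.65 to 0.10 when 1 library was left out. The cause of these shifts was not tested. With 3 libraries a group, differences of the size seen in most members are near the standard errors.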

Other observations

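Among the 28 tested ATF4 and CHOP target genes, the gKO libraries lay wholly above the gWT libraries in 7 (25%, against 10.0% of all genes) and wholly below in 5 (17.9%, against 11.2%). The list was chosen with earlier results known, so nothing particular to it is read from these shares. The 7 were Atf3, Ddit4, Jdp2, Gdf15, Tcea1, Nfe2l2 and Slc3a2, and the 5 were Sesn2, Slc7a11, Slc7a5, Pck2 and Slc38a2, all named after their values were seen. Gdf15, a secreted stress cytokine, had 26.5, 21.2 and 40.4 CPM in gKO and 7.77, 11.7 and 10.9 CPM in gWT (edgeR log2 fold change 1.53, adjusted p = 0.0796, and 0.00471 without gKO replicate 3). Sesn2, a leucine sensor, had 14.5, 15.6 and 3.67 CPM in gKO and 17.5, 18.7 and 22.2 CPM in gWT (edgeR log2 fold change -0.79, adjusted p = 0.603; -0.38 without gKO replicate 3), so that gKO replicate 3 was again far below. The partners of an amino acid transporter had values of opposite sign: Slc3a2 had an edgeR log2 fold change of 0.21 (adjusted p = 0.610; 0.12 without gKO replicate 3) and Slc7a5 one of -0.40 (adjusted p = 0.596; -0.17 without it), neither of them called.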
